A study of Mus musculus with 8 samples.

Results

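The 34 genes described here encode the machinery that brings a nascent secretory protein into the endoplasmic reticulum (ER), cuts off its signal peptide and attaches its N-linked sugars. They were chosen by name, as the rows whose gene symbol is a subunit of the signal recognition particle (SRP), the SRP receptor, the Sec61 channel or its partners, the translocon-associated protein (TRAP) complex, the signal peptidase complex or the oligosaccharyltransferase. All 34 had a row among the 23284 gene symbols of the count files, and all 34 were among the 14116 genes with enough counts to be tested. The rule itself uses no measured value, but the set was drawn up with earlier results of these data known. The shares of members given below may therefore not be independent of these data.

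RNA was sequenced from 8 libraries of pancreatic endocrine cells of mice at embryonic day 17, sorted as Tomato-positive cells of the Neurog3 lineage. The 4 KO libraries (replicates 8, 9, 17 and 24) came from Neurod1floxed/floxed animals, and the 4 Het libraries (replicates 6, 7, 13 and 19) from Neurod1floxed/wt animals. Both groups carried Neurog3Cre+ and RosaTomato+ and have the strain label C56BL/J, so the Het cells had also lost a single allele of Neurod1 and no library is from cells with both alleles intact. Neurog3 marks the endocrine precursors from which every islet cell type arises, so each library mixes alpha, beta, delta and other endocrine cells. Every library also held RNA of acinar marker genes, with levels given below.

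Secretory proteins are recognised by the SRP as their signal sequence leaves the ribosome, delivered to the SRP receptor on the ER membrane and threaded through the Sec61 channel. Signal peptidase then removes the signal sequence, and the oligosaccharyltransferase transfers a preassembled sugar tree to asparagine residues. Islet cells send their peptide hormones through this route, so preproinsulin and preproglucagon are clients of the same channel and the same peptidase.

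The libraries held between 10.35 M and 16.1 M counts over 15443 to 16538 detected genes, and a level of 1 CPM (read counts scaled to library size, here with TMM factors) stood for between 9.86 and 16.2 counts. Neurod1 itself averaged 14.8 ± 9.17 CPM in KO and 156 ± 36.5 CPM in Het libraries (SD, n = 4 each), with a log2 fold change of −3.40 (SE 0.52, BH-adjusted p = 0.0165, up to 0.0732 with 1 library left out; the call was lost without KO 9, without any 1 Het library and, at 0.0725, with a covariate for Y-linked genes). Fold changes, standard errors and adjusted p-values are from edgeR's quasi-likelihood test of KO over Het, with Benjamini-Hochberg (BH) adjustment over all 14116 genes. Genes with an adjusted p below 0.05 are referred to as called. Summed levels of 11 endocrine markers ran between 19317 and 38300 CPM in KO and between 59873 and 84538 CPM in Het libraries. Hormone genes made up most of this sum, so it does not measure the share of endocrine cells. Of the 11 markers, 4 were called lower, against 0.68% of all tested genes. They were Neurod1, which is the floxed gene itself, and Ins1, Ins2 and Gcg, which are counted again among the secreted cargo below. The other markers, none of them called, had log2 fold changes between −0.61 (Chgb) and 0.16 (Ppy). Summed acinar markers ran between 14230 and 48481 CPM in KO and between 11150 and 34857 CPM in Het libraries. The acinar sum was above the endocrine sum only in KO 9 (48481 and 23856 CPM). The 11 mesenchyme markers summed to 9893 CPM in KO 8, 382 to 546 CPM in the other KO libraries and 270 to 1250 CPM in Het libraries. The 7 leukocyte markers summed to between 18.2 and 457 CPM in KO and between 19.96 and 61.9 CPM in Het libraries. The 5 erythroid markers summed to between 7.10 and 12.2 CPM in KO and between 6.41 and 15.3 CPM in Het libraries, mostly from Alas2. Among them, the globin genes Hba-a1 and Hbb-b1 were at 0 in every library. How the counting handled reads matching several genes is not known, so these zeros do not show that such RNA was absent. Y-linked genes had counts in KO 8, KO 9, KO 24 and Het 7 and were near 0 in the other libraries. The labels do not say that replicates are separate animals, so p-values set the difference between genotypes against the spread between these libraries within a genotype.

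The summed level of the 34 genes was lower in every KO than in any Het library. It was 7606, 7243, 6483 and 6526 CPM in KO libraries 8, 9, 17 and 24, and 11485, 10216, 8988 and 8337 CPM in Het libraries 6, 7, 13 and 19. The nearest pair across the genotypes was KO 8 and Het 19, and Het 6 was the highest. The sum averaged 6964 ± 552 CPM in KO and 9756 ± 1391 CPM in Het libraries (SD, n = 4 each), a log2 difference of −0.49, which is given as a description with no test. The same genes took between 0.658% and 0.777% of all counts in KO libraries, and between 0.794% and 1.11% in Het libraries. In such bulk samples, fewer cells of a type and less RNA per cell cannot be told apart.

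Of the 34 genes, 3 were called lower in KO: the signal peptidase subunit Spcs3, the TRAP subunit Ssr4 and the oligosaccharyltransferase subunit Rpn2. That is 8.82% of the members, while 0.68% of all tested genes were called lower and 1.02% in either direction. No member was called higher, by edgeR or under any of the alternatives tried, DESeq2 and limma-voom included, and none was higher at an unadjusted p under 0.05, against 6.35% of all tested genes. At an unadjusted p under 0.05, 23 members were lower (67.6%), against 5.8% of all tested genes. In 13 members (Srp72, Srpr, Srprb, Sec61b, Ssr2, Ssr3, Ssr4, Spcs1, Spcs3, Rpn1, Rpn2, Ddost and Ostc) every KO library lay below every Het library (38.2%), against 4.48% of all tested genes. Counting either direction, libraries of the genotypes were without overlap in 8.03% of all tested genes. The log2 fold change was negative for 32 members (94.1%) and for 46.6% of all tested genes, and its median was −0.49 for the members and 0.03 for all tested genes.

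The called members were near the threshold, and the remaining 31 had adjusted p-values between 0.0608 and 0.962. Leaving out KO 8 gave 4 called members, with 1.31% of all genes then tested called lower, and leaving out Het 19 gave 2, with 0.352%. Leaving out KO 9, KO 17, KO 24, Het 6, Het 7 or Het 13 gave 0 called members, while the share of all genes called lower was 0.236%, 0.256%, 0.29%, 0.215%, 0.201% and 0.18% in the same order, against 0.68% with all libraries. DESeq2 called 10 members lower, against 2.08% of all tested genes, limma-voom 4, against 0.85%, and limma-voom with quality weights 9, against 2.15%. In the authors' deposited results Spcs3 and Ssr4 were the members lower at an adjusted p under 0.05, against 0.698% of the genes in the authors' deposited table.

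**Figure D1:**
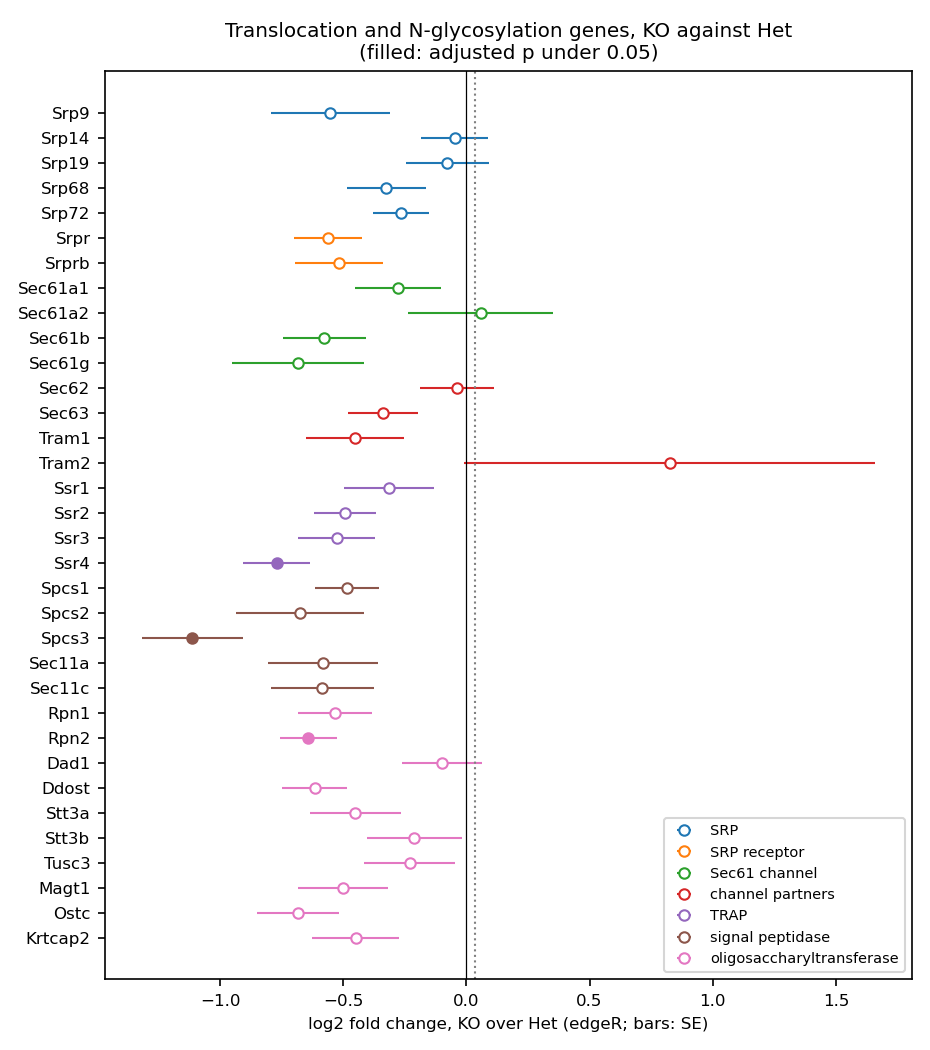
Log2 fold change of each of the 34 genes, KO over Het (x axis, edgeR), in blocks of colour by complex; bars are standard errors, filled circles have an adjusted p under 0.05, and the dotted line is the median of all tested genes at 0.03. Points run between −1.11 (Spcs3) and 0.83 (Tram2), and 32 of 34 lie below 0.

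The signal peptidase genes had the most negative log2 difference in summed level among the 7 complexes listed above. The complex has 2 alternative catalytic subunits, SEC11A and SEC11C, and the accessory subunits SPCS1, SPCS2 and SPCS3, and the yeast counterpart of SPCS3 is essential for cleavage. The 5 genes summed to 888 ± 124 CPM in KO and 1543 ± 401 CPM in Het libraries (SD, n = 4 each), a log2 difference of −0.80. All 5 were lower at an unadjusted p under 0.05, against 5.8% of all tested genes, with log2 fold changes between −1.11 and −0.48. Of the 5, 1 was called lower, against 0.68% of all tested genes.

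Spcs3 had 310, 355, 254 and 271 CPM in KO libraries 8, 9, 17 and 24, and 848, 702, 589 and 432 CPM in Het libraries 6, 7, 13 and 19. Every KO library lay below every Het library, and the Het libraries spread more widely than the KO libraries. Its log2 fold change was −1.11 (SE 0.21, BH-adjusted p = 0.0397, edgeR), and the KO mean was 46.3% of the Het mean. Leaving out 1 library gave log2 fold changes between −1.27 and −0.95 and adjusted p-values between 0.0177 and 0.127. The call held without KO 8 or without Het 19 and was lost without any other single library. In the authors' deposited table, Spcs3 had a log2 fold change of −1.11 and an adjusted p of 0.00805.

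Spcs2 had 407, 225, 252 and 238 CPM in KO libraries 8, 9, 17 and 24, and 588, 550, 363 and 291 CPM in Het libraries 6, 7, 13 and 19. KO 8 stood above the other KO libraries and inside the Het range, and the remaining KO libraries lay below all Het libraries. Spcs2 had a log2 fold change of −0.68 (SE 0.26, BH-adjusted p = 0.332, edgeR). Without KO 8 it was −0.92, with an adjusted p of 0.0578.

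Spcs1 encodes a small subunit whose yeast counterpart is dispensable. Its level was 116 to 137 CPM in KO and 160 to 205 CPM in Het libraries, with no overlap and a log2 fold change of −0.48 (SE 0.13, BH-adjusted p = 0.138, edgeR). Both catalytic subunits had close values: Sec11a had a log2 fold change of −0.58 (SE 0.22, BH-adjusted p = 0.326) and Sec11c of −0.59 (SE 0.21, BH-adjusted p = 0.287). Neither was called, and the KO and Het libraries overlapped in both, through KO 8 for Sec11a and through KO 17 for Sec11c. The log2 ratio of Sec11a to Sec11c within a library was 1.59 ± 0.36 in KO and 1.58 ± 0.14 in Het libraries (SD, n = 4 each), a difference of 0.01 (exact permutation test, two-sided, adjusted p = 0.971 over the 5 pairs compared).

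The TRAP complex, a membrane complex beside the Sec61 channel that helps certain signal sequences open it, is encoded by Ssr1 to Ssr4. TRAP is known to aid the entry of preproinsulin. The 4 genes summed to 1751 ± 230 CPM in KO and 2444 ± 303 CPM in Het libraries (SD, n = 4 each), a log2 difference of −0.48. All 4 had negative log2 fold changes, against 46.6% of all tested genes. In 3 every KO library lay below every Het library, against 4.48% of all tested genes. Only Ssr4 was called, against 0.68% of all tested genes called lower.

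Ssr4 encodes the delta subunit of TRAP and lies on the X chromosome. It had 90.9, 112, 102 and 99.5 CPM in KO libraries 8, 9, 17 and 24, and 198, 182, 163 and 148 CPM in Het libraries 6, 7, 13 and 19. The KO libraries lay close together, and all were below the lowest Het library, Het 19. Its log2 fold change was −0.77 (SE 0.14, BH-adjusted p = 0.0320, edgeR), and the KO mean was 58.6% of the Het mean. The call held without KO 8 or without Het 19 and was lost without any other single library, with adjusted p-values up to 0.104 and log2 fold changes between −0.85 and −0.70. In the authors' deposited table Ssr4 had a log2 fold change of −0.77 and an adjusted p of 0.0289.

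Ssr2 encodes the beta subunit. It had 239, 294, 279 and 297 CPM in KO libraries 8, 9, 17 and 24, and 432, 401, 365 and 364 CPM in Het libraries 6, 7, 13 and 19. The groups did not overlap, KO 8 was the lowest, and the log2 fold change was −0.49 (SE 0.13, BH-adjusted p = 0.119, edgeR). Ssr3, the gamma subunit, ran between 749 and 1005 CPM in KO and between 1096 and 1470 CPM in Het libraries, also with no overlap (log2 fold change −0.53, SE 0.16, BH-adjusted p = 0.187). Ssr1, the alpha subunit that binds calcium, overlapped between the groups, with KO 8 and KO 9 inside the Het range. Its level averaged 491 ± 103 CPM in KO and 611 ± 105 CPM in Het libraries (SD, n = 4 each; log2 fold change −0.31, SE 0.18, BH-adjusted p = 0.525).

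**Figure D2:**
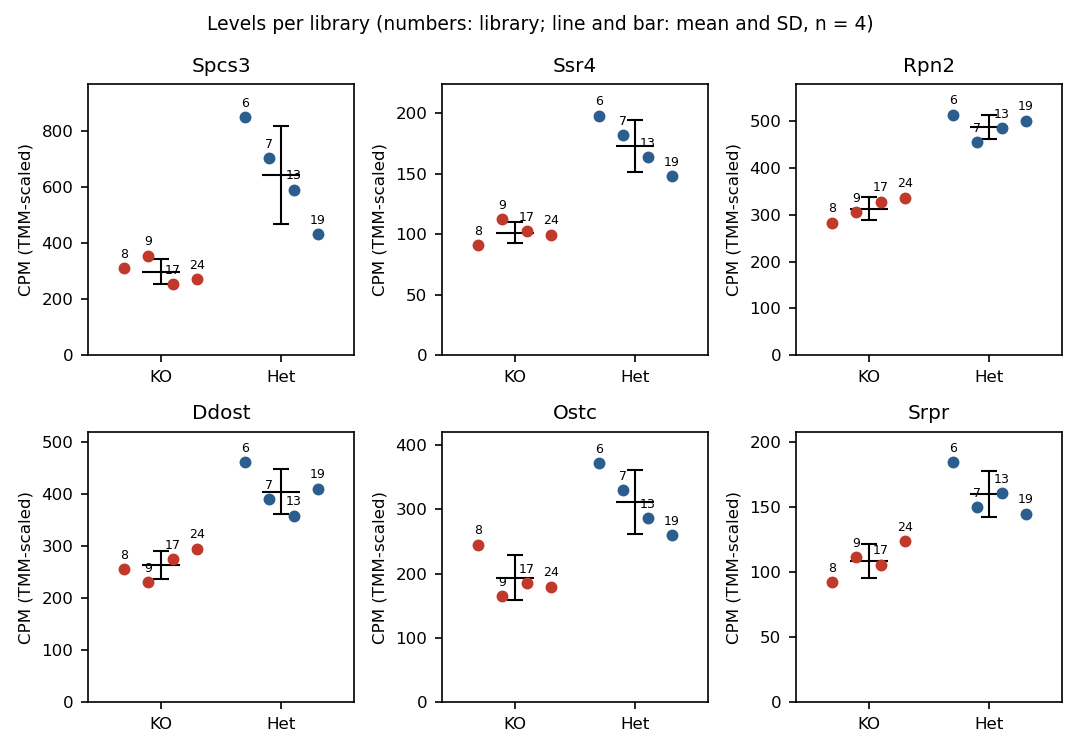
Level in CPM (y axis, TMM-scaled, from 0) of 6 genes in each KO and Het library, with the library number beside each point; the horizontal line and bar are the mean and SD of 4 libraries. In all 6 genes the KO libraries lie below the Het libraries, as for Ssr4 with 90.9 to 112 CPM in KO and 148 to 198 CPM in Het.

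The oligosaccharyltransferase exists in 2 forms that share RPN1, RPN2, DDOST and DAD1. The form with the catalytic subunit STT3A sits at the channel and modifies proteins as they enter, together with OSTC and KRTCAP2. The form with STT3B acts on sites that were skipped, together with TUSC3 or MAGT1. The 10 genes summed to 2300 ± 164 CPM in KO and 3241 ± 412 CPM in Het libraries (SD, n = 4 each), a log2 difference of −0.49. All 10 had negative log2 fold changes, against 46.6% of all tested genes, and 7 were lower at an unadjusted p under 0.05, against 5.8%. Only Rpn2 was called, against 0.68% of all tested genes called lower.

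Among the shared subunits, Rpn2, which encodes ribophorin II, had 283, 306, 328 and 336 CPM in KO libraries 8, 9, 17 and 24, and 514, 455, 485 and 501 CPM in Het libraries 6, 7, 13 and 19. Both groups were tight, and the highest KO library, KO 24, was well below the lowest Het library, Het 7. The log2 fold change was −0.64 (SE 0.12, BH-adjusted p = 0.0364, edgeR), and the KO mean was 64.1% of the Het mean. The call held without KO 8 and was lost without any other single library, with adjusted p-values up to 0.119, while the log2 fold change stayed between −0.69 and −0.61. In the authors' deposited table Rpn2 had a log2 fold change of −0.64 and an adjusted p of 0.0843.

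Ddost, whose product is the subunit OST48, had 256, 231, 275 and 296 CPM in KO libraries 8, 9, 17 and 24, and 462, 391, 359 and 411 CPM in Het libraries 6, 7, 13 and 19. No KO library reached the Het range. Its log2 fold change was −0.62 (SE 0.13, BH-adjusted p = 0.0608, edgeR), just outside the threshold. Rpn1, which encodes ribophorin I, averaged 330 ± 10.3 CPM in KO and 478 ± 94.8 CPM in Het libraries (SD, n = 4 each), with no overlap and a log2 fold change of −0.53 (SE 0.15, BH-adjusted p = 0.165). Dad1 differed least of the shared subunits: it averaged 104 ± 14.7 CPM in KO and 111 ± 17.7 CPM in Het libraries (SD, n = 4 each), the libraries overlapped, and its log2 fold change was −0.10 (SE 0.16, BH-adjusted p = 0.853).

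Of the subunits of the STT3A form, Ostc had 245, 165, 185 and 180 CPM in KO libraries 8, 9, 17 and 24, and 371, 329, 286 and 259 CPM in Het libraries 6, 7, 13 and 19. All KO libraries were below all Het libraries, with KO 8 close to Het 19. Ostc had a log2 fold change of −0.68 (SE 0.17, BH-adjusted p = 0.102, edgeR), and without KO 8 it was called, with −0.83 and an adjusted p of 0.0152. Krtcap2 had a log2 fold change of −0.45 (SE 0.18, BH-adjusted p = 0.340) and Stt3a of −0.45 (SE 0.18, BH-adjusted p = 0.360). In both, the KO and Het libraries overlapped.

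Of the subunits of the STT3B form, Magt1 averaged 333 ± 72.4 CPM in KO and 472 ± 73.7 CPM in Het libraries (SD, n = 4 each; log2 fold change −0.50, SE 0.18, BH-adjusted p = 0.298, edgeR). Tusc3 averaged 110 ± 22.4 CPM in KO and 130 ± 24.8 CPM in Het libraries (−0.23, SE 0.18, BH-adjusted p = 0.657), and Stt3b 217 ± 50.4 CPM in KO and 251 ± 49.2 CPM in Het libraries (−0.21, SE 0.19, BH-adjusted p = 0.701). The libraries of the groups overlapped in all 3 of these genes.

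The log2 ratio of Stt3a to Stt3b within a library was 0.693, 0.799, 0.734 and 0.838 in KO libraries 8, 9, 17 and 24, and 0.991, 0.997, 1.07 and 0.927 in Het libraries 6, 7, 13 and 19. Every KO library had a lower ratio than every Het library. The ratio averaged 0.766 ± 0.0651 in KO and 0.997 ± 0.0600 in Het libraries (SD, n = 4 each), a difference of −0.23. An exact permutation test, two-sided, gave p = 0.0286, the smallest p that 70 assignments allow, and an adjusted p of 0.143 over the 5 pairs of paralogs, and no single pair could have passed the adjustment in this design. Since the ratio is not per transcript length, it says nothing about which paralog is the more abundant.

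**Figure D3:**
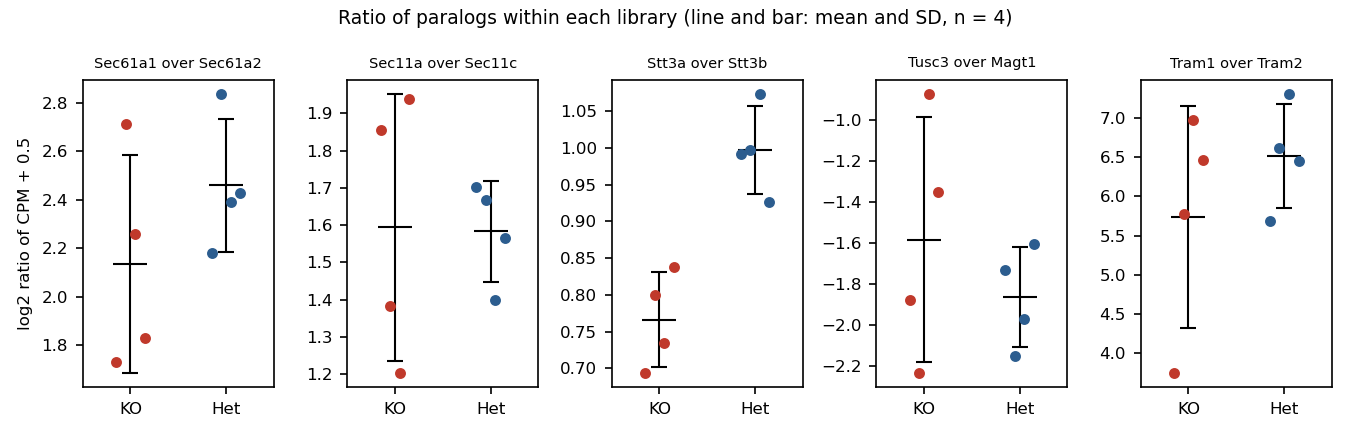
Log2 ratio of 2 paralogs within each library (y axis, pseudocount 0.5 CPM, each panel on its own scale), KO left and Het right in each panel; lines and bars are the mean and SD of 4 libraries. Only in the panel of Stt3a over Stt3b do the groups not overlap, at 0.766 ± 0.0651 in KO and 0.997 ± 0.0600 in Het.

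At the start of the route, the SRP genes had the smallest log2 difference in summed level among the 7 complexes. SRP68 and SRP72 form a heterodimer on the SRP RNA, SRP9 and SRP14 form the domain that slows translation, and SRP19 helps to assemble the particle. The 5 genes summed to 621 ± 17.5 CPM in KO and 750 ± 43.3 CPM in Het libraries (SD, n = 4 each), a log2 difference of −0.27. None was called, against 1.02% of all tested genes, and 2 were lower at an unadjusted p under 0.05, against 5.8%.

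Srp72 had 271, 252, 246 and 245 CPM in KO libraries 8, 9, 17 and 24, and 298, 291, 290 and 340 CPM in Het libraries 6, 7, 13 and 19. The groups did not overlap, although KO 8 and Het 13 were close, and the log2 fold change was −0.27 (SE 0.11, BH-adjusted p = 0.386, edgeR). Srp9 ran between 75.0 and 125 CPM in KO and between 96.2 and 195 CPM in Het libraries (log2 fold change −0.55, SE 0.24, BH-adjusted p = 0.393), and Srp68 between 81.9 and 122 CPM in KO and between 105 and 144 CPM in Het libraries (−0.33, SE 0.16, BH-adjusted p = 0.446). Srp14, the partner of Srp9, averaged 118 ± 11.3 CPM in KO and 122 ± 13.5 CPM in Het libraries (SD, n = 4 each; −0.05, SE 0.13, BH-adjusted p = 0.924). Srp19 averaged 51.9 ± 4.24 CPM in KO and 54.8 ± 10.1 CPM in Het libraries (−0.08, SE 0.17, BH-adjusted p = 0.898).

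The SRP receptor has a GTPase subunit that docks the particle, encoded by Srpr, and a membrane subunit encoded by Srprb. Srpr had 92.2, 111, 106 and 124 CPM in KO libraries 8, 9, 17 and 24, and 184, 150, 161 and 145 CPM in Het libraries 6, 7, 13 and 19. The groups did not overlap, and the log2 fold change was −0.56 (SE 0.14, BH-adjusted p = 0.107, edgeR). Srprb ran between 52.5 and 74.1 CPM in KO and between 74.1 and 112 CPM in Het libraries. There KO 9 and Het 19 were almost level, at 74.10 and 74.11 CPM, and the log2 fold change was −0.52 (SE 0.18, BH-adjusted p = 0.263).

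The Sec61 channel is built of the pore-forming alpha subunit and the small beta and gamma subunits. Sec61b, the beta subunit, had 72.3, 101, 118 and 97.8 CPM in KO libraries 8, 9, 17 and 24, and 172, 136, 139 and 134 CPM in Het libraries 6, 7, 13 and 19. KO 8 was lowest and Het 6 highest, with no overlap between the groups, and the log2 fold change was −0.58 (SE 0.17, BH-adjusted p = 0.176, edgeR). Sec61g, the gamma subunit, was low in these libraries, with 9.25, 10.7, 9.12 and 9.16 CPM in KO libraries 8, 9, 17 and 24, and 15.1, 19.5, 16.3 and 10.5 CPM in Het libraries 6, 7, 13 and 19. The groups overlapped only through KO 9 and Het 19, and the log2 fold change was −0.68 (SE 0.27, BH-adjusted p = 0.342).

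The main alpha subunit gene, Sec61a1, averaged 261 ± 27.3 CPM in KO and 316 ± 78.1 CPM in Het libraries (SD, n = 4 each; log2 fold change −0.28, SE 0.18, BH-adjusted p = 0.561, edgeR). Its paralog Sec61a2 averaged 61.1 ± 19.7 CPM in KO and 58.7 ± 23.4 CPM in Het libraries (0.06, SE 0.29, BH-adjusted p = 0.962). KO 8 and Het 6 were the highest libraries for Sec61a2, at 87.0 and 93.5 CPM, and the libraries of the groups overlapped. The log2 ratio of Sec61a1 to Sec61a2 was 2.13 ± 0.45 in KO and 2.46 ± 0.27 in Het libraries, a difference of −0.33 (SD, n = 4 each; exact permutation test, two-sided, adjusted p = 0.536 over the 5 pairs).

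Of the channel's partners, SEC63 recruits the lumenal chaperone BiP to the channel, SEC62 works with it on short precursors, and TRAM1 contacts entering chains. Sec63 averaged 230 ± 26.5 CPM in KO and 291 ± 36.3 CPM in Het libraries (SD, n = 4 each; log2 fold change −0.34, SE 0.14, BH-adjusted p = 0.369, edgeR). Sec62 averaged 217 ± 20.1 CPM in KO and 223 ± 40.4 CPM in Het libraries (−0.04, SE 0.15, BH-adjusted p = 0.946). Tram1 averaged 346 ± 57.7 CPM in KO and 474 ± 131 CPM in Het libraries (−0.45, SE 0.20, BH-adjusted p = 0.401).

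Tram2, a relative of Tram1 that has been linked to collagen synthesis, was the member with the highest fold change and the lowest counts. It had 27.7, 7.02, 1.89 and 2.88 CPM in KO libraries 8, 9, 17 and 24, and 12.4, 3.96, 2.21 and 3.65 CPM in Het libraries 6, 7, 13 and 19. The groups overlapped widely, and KO 8 was far above all other libraries. Its log2 fold change was 0.83 (SE 0.83, BH-adjusted p = 0.737, edgeR), and −0.52 (adjusted p = 0.780) without KO 8. KO 8 was also the library with the highest summed level of the 11 mesenchyme markers, among them Col1a1 at 780 CPM in KO 8, 49.8 to 69.1 CPM in the other KO libraries and 39.4 to 97.4 CPM in Het libraries. The part of such cells in the level of Tram2 was not tested. The log2 ratio of Tram1 to Tram2 differed by −0.78 between KO and Het (exact permutation test, two-sided, adjusted p = 0.536 over the 5 pairs), and that of Tusc3 to Magt1 by 0.28 (adjusted p = 0.536).

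**Figure D4:**
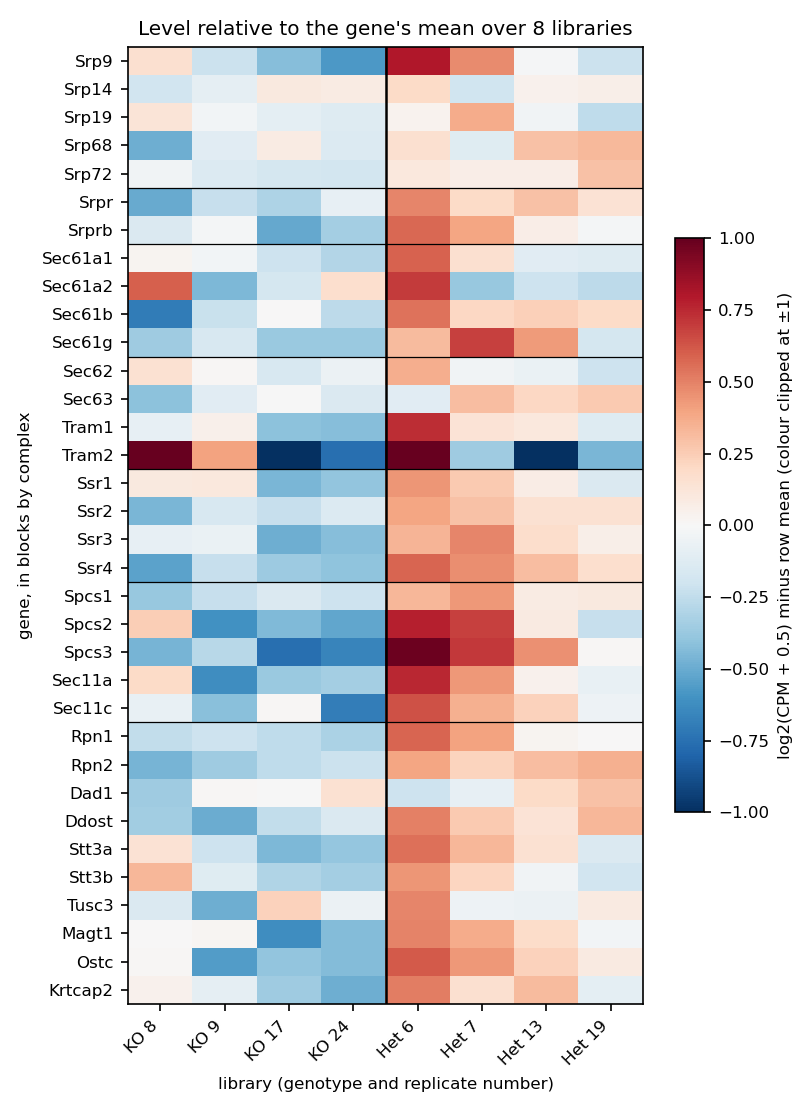
Log2(CPM + 0.5) of each gene (rows, in blocks by complex) in each library (columns, KO left and Het right) minus the mean of the row; red is above and blue below the mean, with the colour limited at ±1. Het 6 is the highest library for 25 of 34 genes, and Tram2 stands out in KO 8.

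The libraries of each genotype differed among themselves in the same genes. Het 6 was the highest of all 8 libraries in 25 of 34 members, Het 7 in 5, Het 19 in 3 and KO 8 in 1. Among Het libraries, Het 19 was the lowest in 23 members. The lowest of all 8 libraries was a KO library in 31 members (KO 8 in 9, KO 17 in 8, KO 24 in 8 and KO 9 in 6), and Het 19 in 2 and Het 7 in 1. KO 8 was thus the lowest library in 26.5% of members, near its share of 20.9% of all tested genes. It was the highest in 2.94% of members, against 22.7% of all tested genes. Such shares of all genes were not counted for the other libraries.

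The share of counts on the ribosomal RNA gene Rn45s ran against the members' summed level within both genotypes. It was 1.064%, 3.72%, 5.47% and 5.02% in KO libraries 8, 9, 17 and 24, and 0.902%, 1.84%, 2.80% and 5.54% in Het libraries 6, 7, 13 and 19. The library with the smallest share, KO 8 among KO and Het 6 among Het libraries, had the largest summed level of its genotype. The part of this difference between libraries in the results was not tested.

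Y-linked counts were not balanced between the groups, being present in 3 of 4 KO and 1 of 4 Het libraries. The libraries with Y-linked counts (3 KO, 1 Het) and those without (1 KO, 3 Het) each hold a single library of a genotype, so the values within them have no spread to be read against and are given as a description. Within the libraries with Y-linked counts, the KO mean was below the Het value in 29 of 34 members, with a median log2 ratio of −0.51. Within those without, the KO value was below the Het mean in 32 members, with a median of −0.59. The part of this imbalance in the results was not tested by these values.

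With the mean level of the Y-linked genes as a covariate, 0 members were called, and 0.156% of all tested genes were called lower. Spcs3 then had a log2 fold change of −1.23 (adjusted p = 0.111, edgeR), Ssr4 of −0.79 (0.125) and Rpn2 of −0.59 (0.177). With a covariate for acinar markers 1 member was called, against 0.368% of all tested genes: Spcs3 had −1.10 (adjusted p = 0.0488, edgeR), Ssr4 −0.77 (0.0511) and Rpn2 −0.64 (0.0673). With a covariate for mesenchyme markers 15 were called lower, against 2.66% of all tested genes.

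Of 85 other genes around this pathway, in 8 lists chosen by function, 84 could be tested. The lists were drawn up with earlier results of these data known, so shares of their genes may not be independent of these data. Of the 84 tested genes, 8 were called lower and 0 higher, against 0.68% and 0.34% of all tested genes. The calls were among the lumenal partners (4), the secreted cargo (3) and the glycan trimming genes (1), and the other lists had none. Among 14 tested SRP and translocon factors outside the members, 0 were called and the median log2 fold change was 0.03. The one with the smallest p was Serp1, which encodes a small protein bound to the channel, at 487 ± 142 CPM in KO and 672 ± 141 CPM in Het libraries (SD, n = 4 each; −0.46, SE 0.23, BH-adjusted p = 0.444, edgeR). The 7 tail-anchor insertion genes (median 0.05, 0 called, smallest p for Wrb at 0.41, adjusted p = 0.547) and the 9 tested ER membrane complex genes (median 0.05, 0 called, smallest p for Emc7 at −0.44, adjusted p = 0.183) lay near the median of all genes. Tmem258, a further oligosaccharyltransferase subunit, averaged 58.8 ± 11.7 CPM in KO and 95.6 ± 22.3 CPM in Het libraries (SD, n = 4 each; −0.70, SE 0.20, BH-adjusted p = 0.180), and the other such subunit, Ost4, was at 0.01.

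The 28 genes that build the lipid-linked sugar tree, the substrate of the oligosaccharyltransferase, had a median log2 fold change of −0.06, and 0 were called. The smallest p belonged to Alg6, a glucosyltransferase of that tree (−0.65, SE 0.20, BH-adjusted p = 0.218, edgeR). Of 10 genes of glycan trimming and the calnexin cycle, 1 was called lower: Uggt1, the sensor that marks misfolded glycoproteins for another round, at 212 ± 17.6 CPM in KO and 326 ± 17.7 CPM in Het libraries (SD, n = 4 each; −0.62, SE 0.12, BH-adjusted p = 0.0403). Leaving out any 1 library other than KO 8 ended that call (adjusted p up to 0.145), as did the Y-linked covariate (0.196), the acinar covariate (0.0702) and total counts (0.0551). The median of the 10 genes was −0.16.

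Of 6 lumenal partners of the channel, 4 were called lower, against 0.68% of all tested genes, and the median log2 fold change was −0.82. Hspa5, the gene of BiP, had 1721, 1894, 2103 and 2345 CPM in KO libraries 8, 9, 17 and 24, and 3502, 4108, 3277 and 3349 CPM in Het libraries 6, 7, 13 and 19. The groups did not overlap (−0.82, SE 0.15, BH-adjusted p = 0.0401, edgeR). Hyou1, a nucleotide exchange factor of BiP, had −1.03 (SE 0.19, BH-adjusted p = 0.0380), Dnajc3, a BiP co-chaperone, had −0.82 (SE 0.12, BH-adjusted p = 0.0114), and Hsp90b1, the lumenal HSP90, had −0.88 (SE 0.16, BH-adjusted p = 0.0337). Leaving out any 1 library other than KO 8 ended the calls of Hspa5 and Hyou1, any 1 other than KO 8 and Het 19 that of Hsp90b1, and KO 17, Het 7 or Het 13 that of Dnajc3 (adjusted p up to 0.131, 0.119, 0.113 and 0.0637 for these genes in that order). The Y-linked covariate ended all 4 calls (adjusted p of 0.123 for Hspa5, 0.170 for Hyou1, 0.0725 for Dnajc3 and 0.125 for Hsp90b1), and the acinar covariate ended those of Hspa5 (0.0574), Hyou1 (0.0685) and Hsp90b1 (0.0600). With total counts as the scaling, Hspa5 was at 0.0544. KO 8 was the lowest library for all 6 genes, against 20.9% of all tested genes.

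Of 8 genes of secreted cargo, 3 were called lower, against 0.68% of all tested genes. These were Ins1 (−3.64, adjusted p = 0.00795), Ins2 (−1.63, adjusted p = 0.0195) and Gcg (−1.04, adjusted p = 0.0440), all by edgeR. Ins1 stayed called without any 1 library, and Ins2 and Gcg only without KO 8 or without KO 24 (adjusted p up to 0.0771 and 0.143). The Y-linked covariate ended the calls of Ins2 (adjusted p = 0.0973) and Gcg (0.170), and Gcg was also not called with the acinar covariate (0.0588) or with total counts (0.0559). The 8 cargo genes summed to 28564 ± 8171 CPM in KO and 70186 ± 11568 CPM in Het libraries (SD, n = 4 each), a log2 difference of −1.30, against −0.49 for the sum of the members.

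**Figure D5:**
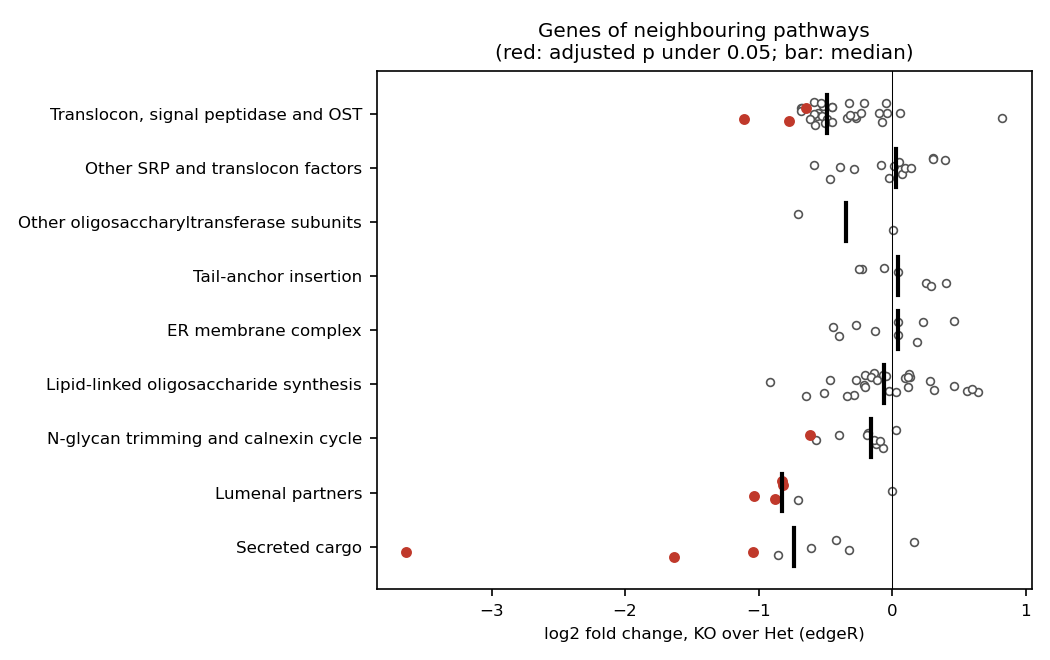
Log2 fold change, KO over Het, of the 34 genes and of the tested genes of 8 lists around the pathway (one row a list, points spread vertically only for sight); red points have an adjusted p under 0.05 and black bars are medians. The members' median of −0.49 lies between those of the ER membrane complex (0.05) and the lumenal partners (−0.82).

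Promoters were examined because most members had negative log2 fold changes. RefSeq windows of GRCm38.p6, 250 bases before to 50 bases after a start, were found for 25 of the 34 members, in 27 windows. Those of the called members Ssr4 and Rpn2 are printed here up to the start, 5′ to 3′, and no part is in capitals because none of the 3 motifs searched was in them. The called member Spcs3 had no window, so the motif search did not cover it. Ssr4 is at chrX:73786773-73787022 on the + strand, and Rpn2 (the first of its 2 windows) at chr2:157278848-157279097 on the + strand.
Ssr4: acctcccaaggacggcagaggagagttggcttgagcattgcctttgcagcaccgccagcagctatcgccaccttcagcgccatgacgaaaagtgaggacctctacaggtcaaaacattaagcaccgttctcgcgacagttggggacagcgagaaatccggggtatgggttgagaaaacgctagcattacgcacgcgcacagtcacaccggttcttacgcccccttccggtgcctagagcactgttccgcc
Rpn2: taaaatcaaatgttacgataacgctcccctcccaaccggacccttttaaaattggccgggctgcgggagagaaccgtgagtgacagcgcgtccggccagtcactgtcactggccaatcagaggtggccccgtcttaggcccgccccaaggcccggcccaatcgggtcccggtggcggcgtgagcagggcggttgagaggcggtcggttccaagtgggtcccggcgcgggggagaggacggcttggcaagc

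Motifs were sought on both strands. The ER stress response element (ERSE), a bipartite motif bound by NF-Y and ATF6, was in 0 of 27 member windows and in 39 of 32851 windows of all genes (0.119%). TGACGTGG, the core of the unfolded protein response element, was in 0 of 27 and in 222 of all windows (0.676%). The E-box CAGATG, a sequence that NEUROD1 and related factors can bind, was in 3 of 27 member windows (11.1%), which belong to Krtcap2 and Ssr1, and in 5635 of all windows (17.2%). The windows of Krtcap2 overlap and hold the same E-box, so by gene the E-box was in 2 of 25 members. Since only the E-box was found in member windows, no motifs overlapped there. The E-box, or its reverse complement, is in capitals in the following stretches, at chr3:89246275-89246304 on the + strand for Krtcap2 and at chr13:37994340-37994369 on the − strand for Ssr1.
Krtcap2: ccagagagacagCAGATGccttggctacag
Ssr1: agcgatgctaagCATCTGgaagagataagc

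The E-box holders were not among the called members, with log2 fold changes of −0.45 for Krtcap2 and −0.31 for Ssr1. A match describes the letters of the window, and a window without one says nothing about a factor.

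The sequencing kit does not keep strand, so reads from overlapping genes cannot be told apart. In the GENCODE vM21 annotation, exons of 14 of the 34 members overlap an exon of another gene, 8 of them one that codes for protein, among them Spcs3 with Asb5, Rpn2 with Mroh8 and Srpr with Fam118b and Tirap. Neither Asb5 nor Mroh8 had enough counts to be tested. Fam118b (−0.21, adjusted p = 0.767, edgeR) and Tirap (0.62, adjusted p = 0.681) were not called.

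The genes beside the called members on the chromosome, looked at after their values were known, differed in direction. Ssr4 lies next to Idh3g, which had a log2 fold change of −0.17 (SE 0.12, BH-adjusted p = 0.605, edgeR). Rpn2 lies 6 protein-coding genes from the imprinted gene Nnat, which averaged 71.2 ± 50.1 CPM in KO and 2045 ± 284 CPM in Het libraries (SD, n = 4 each; −4.84, SE 0.44, BH-adjusted p = 0.00116). Of the genes between them, Blcap had −0.81 (SE 0.18, BH-adjusted p = 0.0733), Manbal 0.16 and Src −0.16. Tenm3 (Odz3 in the files), 5 genes from Spcs3, was called higher, at 131 ± 11.9 CPM in KO and 74.6 ± 7.03 CPM in Het libraries (0.81, SE 0.13, BH-adjusted p = 0.0227), a call that held without KO 8 or without Het 19 and was lost without any other single library (adjusted p up to 0.102) or with the Y-linked covariate (0.125). Nnat stayed called without any 1 library (up to 0.00964).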

How the data were processed

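Pancreata were digested, Neurog3-lineage Tomato-positive cells were sorted, and 2.315 ng of RNA per sample was amplified with the NuGEN Ovation V2 kit and sequenced as single-end reads on a HiSeq2000, per the labels' protocols. The kit does not keep strand, and copies made in the amplification add to the counts. What the authors deposited for each library is a list of raw read counts, 1 per gene symbol, without normalization. The submitters' processing notes name DESeq, Cufflinks 2.0.2, TopHat2 2.1.0, bcl2fastq 1.8.4 and the mouse build mm9. Which counting tool and annotation were used, and how reads matching several genes were handled, is not given in the sources used here. A results table by the authors was deposited too. Its signal columns are mean normalized counts, its fold change is the ratio of KO to Het, with its log2 fold change, a p-value and an adjusted p-value for each gene, per the file headers.

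Libraries were assigned to KO or Het from their titles. No library was a repeat of another (chi-square over degrees of freedom of at least 19.1 for each pair). Of 23284 symbols, 18760 had a count, and filterByExpr (minimum count 10, minimum total 15) kept 14116. KO was compared with Het in edgeR 4.0.16 (R 4.3.3) by the two-sided quasi-likelihood test with TMM scaling and no covariate. Adjustment of p-values followed Benjamini and Hochberg and covered every tested gene. The common dispersion was 0.181. Members, lists, motifs and the rule for naming genes (all members, and from each list every called gene up to 5, or the 1 with the smallest p) were chosen with earlier results of these data known. The lists matched 85 symbols, 1810006K21Rik standing for Tmem258 and 2900064A13Rik for Emc7 through RefSeq synonyms. Emc1 was not analysed here. Srp54a, Srp54b and Srp54c are near-identical copies whose reads the counting may split. Paralog ratios used log2(CPM + 0.5) and exact permutation tests over 70 assignments (scipy 1.17.1). Promoter coordinates are of GRCm38.p6, another build than that of the files. The fit was run on simulated counts, with a lower dispersion than these libraries show, as a check of the script only.

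Alternatives were other scalings, DESeq2 1.42.0, limma 3.58.1 voom without and with sample quality weights, other filters on low counts, covariates for acinar, mesenchyme and Y-linked genes, other pseudocounts, and each library left out in turn. Leaving out KO 8 together with the Y-linked covariate, and the values within libraries with and without Y-linked counts, were added after seeing the data. Counting error is small for most members, since the lowest count of any member in a library was 25, and it covers counting only, not amplification.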

Additional observations from a re-analysis of the deposited data

Results flagged for a closer look

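Of 122 groups of 4 libraries looked at (KO and Het libraries of each member, of the other named genes, of the summed levels and of the paralog ratios), 8 held a library set apart from the other libraries of its genotype by Dixon's criterion, and chance alone marks about 1 group in 20. Het 6 stood apart with high values of Sec61a2 (93.5 CPM), Sec61b (172 CPM) and Tram2 (12.4 CPM). Het 19 stood apart with high values of Srp72 (340 CPM), Ins1 (24136 CPM) and Neurod1 (210 CPM). KO 8 stood apart for Spcs2, at 407 CPM with the other KO libraries between 225 and 252 CPM. KO 9 stood apart for Sec61g, at 10.7 CPM with the other KO libraries between 9.12 and 9.25 CPM.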

How the results depend on the processing

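No paired analysis was possible because the genotypes share no replicate number. The members called lower in KO numbered 3, and 10 with DESeq2, 9 with limma-voom and quality weights, 15 with the mesenchyme covariate, 1 with the acinar covariate, 0 with that for Y-linked genes, 1 without KO 8 and with the Y-linked covariate, and 0 to 4 with each library left out. The genes called in all numbered 144, and 520, 500, 608, 71 and 28 under the first 5 of these, and 29 to 285 with each library left out. Other scalings, limma-voom and other filters gave 3 or 4 members, and total counts moved the median of all genes to 0.09. Members called higher stayed at 0 under all of these.

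Among members, signs turned only for those near 0 and for Tram2. Srp14 (−0.05) was 0.0111 with total counts, 0.0247 with limma-voom and quality weights, 0.0711 with the Y-linked covariate, 0.0856 without KO 8 and with that covariate, and −0.12 to 0.0096 with each library left out. Srp19 ran between −0.18 and 0.0474 and Sec62 between −0.12 and 0.0914 with each library left out, and Sec62 was 0.019 with total counts. Sec61a2 (0.06) was −0.0919 with the mesenchyme covariate, −0.0485 without KO 8 and with the Y-linked covariate, and −0.17 to 0.37 with each library left out. Tram2 (0.83) was −0.0194 with limma-voom and quality weights, −0.246 with the mesenchyme covariate, −0.707 without KO 8 and with the Y-linked covariate, and −0.52 to 1.59 with each library left out. Dad1 (−0.10) was 0.0064 without KO 8 and with the Y-linked covariate. The difference in the ratio of Sec11a to Sec11c (0.01) was −0.0008 with a pseudocount of 2 CPM and −0.10 to 0.14 with each library left out. The cause was not tested. Of the values of named genes under all alternatives, 817 kept direction and side of the threshold, 94 lost a call, 30 gained one and 19 turned sign.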
